A study of Rattus norvegicus with 36 samples.

Results

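Capg and 8 other genes that regulate actin (Gsn, Vil1, Scin, Lcp1, Fscn1, Arpc1b, Coro1a, and Pfn1) were followed in rat lung after instillation of DQ-12, a quartz dust used as a reference for fibrogenic crystalline silica. Members were found on the array by gene name, and all 9 were present, each with 1 probe, among 25597 named genes. Of those, 23940 genes, the 9 members included, passed the filter on dim probes. The members were chosen by measured changes between DQ-12 and vehicle rats, since Capg was singled out by the study on these rats at D30 and D180 and the other genes were added with the results at all 3 days known. Their changes with DQ-12 are therefore given as a description, without p-values.

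Female Sprague Dawley rats aged 13 weeks received a single instillation into the airway of 10 mg of DQ-12 per rat, or the saline vehicle alone (control rats). All rats were thus instilled, and groups of 6 rats per treatment were examined 1, 30, or 180 days later (D1, D30, D180), so rats at D180 were older than those at D1. The accessory lobe of the lung was taken whole from each rat, and its RNA was hybridized to its own single-color array, giving 36 arrays. Nothing in the labels states that rats were pooled. Values are log2 signals after quantile normalization, each SD is between the 6 rats of a group, and each SE is that of the log2 change in the linear model (limma, 36 arrays). A signal depends on the probe as well as the transcript, so levels were compared between groups and not between genes.

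The arrays showed the labeled tissue, as all 6 lung epithelium markers (the surfactant genes Sftpc, Sftpb, and Sftpa1, with Ager, Scgb1a1, and Cldn18) were well above background on all 36 arrays. Between 51.4 and 75.5% of probes were well above background on an array, and the median correlation of an array with others of its group ranged from 0.964 to 0.985. The lowest of these values belonged to vehicle replicate 5 at D180. Scan dates were read from the array files and were unevenly spread. All 6 DQ-12 arrays at D1 shared a scan date with only 1 of the 6 vehicle arrays, whereas at D30 both scan dates held both groups. In whole lobes, fewer cells of a type and less RNA per cell cannot be told apart.

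Actin filaments are built from actin monomers, and they are cut, capped, branched, and bundled by dedicated proteins. Capg caps the fast-growing end of a filament and belongs to the gelsolin family, whose other members here, Gsn (gelsolin), Vil1 (villin), and Scin (scinderin), also sever filaments in the presence of calcium. Lcp1 (L-plastin) and Fscn1 (fascin) hold filaments in bundles. Arpc1b is a subunit of the Arp2/3 complex, which starts new branches, and Coro1a (coronin 1A) is found on actin in leukocytes. Pfn1 (profilin) hands monomers to growing filaments. In the lung, such proteins shape phagocytosis and migration of macrophages and neutrophils, and some of them, Lcp1 and Coro1a among them, are known chiefly from blood cells.

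The 4 gelsolin family genes are related, and the probes used to tell them apart were therefore compared. In the sequences below, capitals mark the longest run of bases that a probe shared with the probe of another gene of the family.
Capg: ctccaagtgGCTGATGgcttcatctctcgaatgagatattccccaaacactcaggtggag
Gsn: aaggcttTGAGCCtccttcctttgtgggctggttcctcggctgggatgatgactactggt
Vil1: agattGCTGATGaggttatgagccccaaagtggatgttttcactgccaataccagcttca
Scin: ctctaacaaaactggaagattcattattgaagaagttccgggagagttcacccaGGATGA
Each probe is 60 bases long. The longest shared run was 7 bases, between Capg and Vil1, and it was 6 bases between Gsn and Vil1 and between Scin and Gsn. No probe under another gene name shared a run of 20 bases with the probe of any member. The array files place the probes, in coordinates of the build named in their headers (RGSCv3.4, rn4), on chr4:105861868-105861927 for Capg and chr3:14385981-14386040 for Gsn, each an unbroken stretch. The Vil1 probe reached over 1732 bases of chr9:73769114-73770845, and the Scin probe over 57706 bases of chr6:59241333-59299038, on the minus strand. Transcript accessions of all 9 probes were listed under the same symbols in the RefSeq gene table of a later rat assembly (GRCr8). That table also lists pseudogenes named after Capg (1), Vil1 (1), and Arpc1b (2), and whether their transcripts reach these probes was not tested.

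Capg signal was higher in DQ-12 rats than in vehicle rats at each of the 3 days, and the gap was wider at each later day. At D1, vehicle rats ranged from 11.45 to 11.97 (median 11.71) and DQ-12 rats from 12.09 to 12.43 (median 12.31). At D30, the ranges were 11.01 to 11.63 (median 11.40) and 12.18 to 12.63 (median 12.29). At D180, they were 11.29 to 11.88 (median 11.52) and 12.64 to 13.74 (median 13.23). The groups did not overlap at any of the 3 days, and the lowest DQ-12 rat at D180 exceeded the highest DQ-12 rat at D30 by a small margin. The log2 change was 0.56 (SE 0.14, FC 1.48) at D1, 0.95 (SE 0.14, FC 1.93) at D30, and 1.70 (SE 0.14, FC 3.25) at D180. The change at D180 exceeded that at D1 by 1.14 (SE 0.19) and that at D30 by 0.75 (SE 0.19) on the log2 scale, differences that the choice of Capg at D30 and D180 partly sets. The change at D30 exceeded that at D1 by 0.38 (SE 0.19). Over that step, the mean went from 12.27 to 12.34 in DQ-12 rats and from 11.71 to 11.40 in vehicle rats. The gap between D1 and D30 thus widened mostly through lower vehicle values at D30. With slide as a block, the excess of D180 over D30 was 0.44, where the D180 value rests on the only slide that held both groups at that day, with 1 rat of each. Capg values also varied more after DQ-12 at D180, with an SD of 0.38 against 0.22 in vehicle rats of that day and 0.15 to 0.16 in DQ-12 rats at the earlier days. The DQ-12 arrays of D180 lay on more scan dates and slides than those of D1 or D30. Spread among rats and spread among scan dates or slides cannot be told apart in that comparison.

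**Figure D1:**
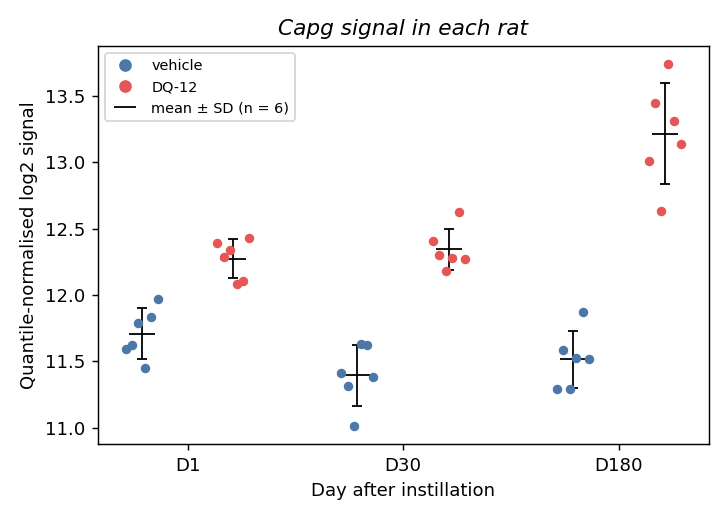
Quantile-normalized log2 signal of Capg (vertical axis) in each of the 6 rats per group at D1, D30, and D180 (horizontal axis), vehicle in blue and DQ-12 in red, with black bars for mean ± SD. DQ-12 rats lie above all vehicle rats at each day, and the D180 points reach from 12.64 to 13.74.

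The Capg probe was spotted 10 times on each array, which gives the precision of a single reading. The SD among those spots had a median of 0.044 (0.027 to 0.063), against 0.23 among rats of a group. The spread between arrays of a group was thus well above that between spots. Each rat had its own array, so that spread holds differences of array, slide, and scan date as well as of rats. Capg at D30 was also higher within each scan date, by 1.19 in the first (4 vehicle rats, 1 DQ-12 rat) and 0.97 in the second (2 and 5 rats). At D180, it was higher by 1.66 in the scan date that held 3 rats of each group and by 1.73 in another with 1 of each. At D1, the single vehicle rat scanned with the DQ-12 rats read 11.79, below all 6 of them, and the change with scan date as a block was 0.48 (SE 0.22). The same block gave 1.05 (SE 0.14) at D30 and 1.68 (SE 0.14) at D180.

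General leukocyte markers were higher at D180, as Capg was, but not at D1. Marker changes here and below are from the fit without a batch term. At D1, only 1 vehicle array shared a scan date with the 6 DQ-12 arrays, so treatment and scan date are hard to separate for them. Of 5 general leukocyte markers (Ptprc, Cd53, Laptm5, Itgb2, and Tyrobp), 2 were lower at D1 (adjusted p under 0.05), 1 was higher at D30, and 4 were higher at D180, with median log2 changes of -0.27, 0.26, and 0.60. Their mean level ranged from 13.25 to 13.56 in vehicle rats and 12.96 to 13.35 in DQ-12 rats at D1, from 13.14 to 13.57 and 13.49 to 13.73 at D30, and from 13.21 to 13.54 and 13.75 to 14.04 at D180. Macrophage markers differed among themselves. Of 6 (Cd68, Mrc1, Adgre1, Csf1r, Lyz2, and Cd163), none passed at D1, 1 was higher at D30, and at D180 1 was higher and 1 lower, with median changes of 0.07, 0.01, and 0.04. Their mean level was 10.35 to 10.76 in vehicle and 10.54 to 10.68 in DQ-12 rats at D1, 10.31 to 10.51 and 10.25 to 10.63 at D30, and 10.37 to 10.78 and 10.44 to 10.91 at D180. The marker that rose was Cd68, a lysosomal protein of phagocytes (1.16 at D30 and 1.55 at D180, SE 0.15), and the one that fell was the scavenger receptor Cd163 (-0.89 at D180, SE 0.21). Lyz2 read near the top of the quantile-normalized scale, with a median of 18.20 in each group, which limits the change it could show. Neutrophil markers had median changes of 0.45, 0.77, and 1.33, with 1, 2, and 4 of 6 higher at D1, D30, and D180. Their mean level ranged from 7.43 to 7.91 in vehicle rats and 8.23 to 8.78 in DQ-12 rats at D1, from 7.45 to 8.36 and 8.25 to 9.42 at D30, and from 7.76 to 8.42 and 8.84 to 9.71 at D180. Among them, Mpo was well above background on only 9 of 36 arrays. The part of any of these cells in the Capg change was not tested.

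The other gelsolin family members did not follow Capg. Gsn, a severing protein that also circulates in plasma, had a lower mean in DQ-12 rats, with log2 changes of -0.42 at D1, -0.18 at D30, and -0.44 at D180 (SE 0.14). At D1, vehicle rats ranged from 15.91 to 16.61 (median 16.45) in Gsn signal and those given DQ-12 from 15.61 to 16.21 (median 15.91). The D30 ranges were 16.46 to 16.83 (median 16.59) and 16.04 to 16.55 (median 16.47), and those at D180 15.37 to 16.26 (median 15.98) and 15.12 to 15.76 (median 15.46). The groups overlapped at each day, with 3 of 6 DQ-12 rats below all vehicle rats each time. With scan date as a block, the Gsn change was -0.01 (SE 0.20) at D1, -0.21 (SE 0.13) at D30, and -0.61 (SE 0.13) at D180. With slide as a block, the D180 value was -0.34 (SE 0.28). The D1 value rests on the only vehicle rat scanned with the DQ-12 rats, which read 15.91. Smooth muscle markers, from a cell type that expresses Gsn, were compared with it in the fit without a batch term. At D180, 3 of 5 were lower (median change -0.62), as Gsn was, but at D1 1 of 5 was higher (median 0.25). At D30, 1 of 5 was lower (median -0.38). The mean level of these markers was 10.17 to 10.43 in vehicle and 10.31 to 10.94 in DQ-12 rats at D1, 9.79 to 10.40 and 9.33 to 10.07 at D30, and 9.97 to 10.19 and 9.09 to 9.83 at D180. Endothelial markers (Pecam1, Cdh5, Vwf, and Cldn5) had medians below 0 at each day, as Gsn had, with changes of -0.29, -0.29, and -0.53. Of the 4, none passed at D1, 1 was lower at D30, and all 4 were lower at D180. Their mean level was 13.55 to 13.97 in vehicle and 13.32 to 13.62 in DQ-12 rats at D1, 13.88 to 14.23 and 13.41 to 13.97 at D30, and 13.66 to 13.83 and 13.00 to 13.34 at D180. Fibroblast markers (Col1a1, Col1a2, Col3a1, Pdgfra, and Dcn) had median changes of -0.07, -0.28, and -0.13, and none of them passed at any day. The part of smooth muscle, endothelium, and fibroblasts in the Gsn values was not tested.

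Vil1, which bundles and severs filaments in brush borders, was close to background. It was well above background on 26 of 36 arrays, in 6, 4, and 6 vehicle rats and in 5, 2, and 3 DQ-12 rats at D1, D30, and D180. Its values spread from 4.66 to 5.37 (median 5.26) in vehicle rats and, after DQ-12, 4.08 to 5.99 (median 4.65) at D1, from 4.24 to 5.45 (median 4.60) and 2.17 to 5.36 (median 3.61) at D30, and from 4.24 to 5.23 (median 4.71) and 2.02 to 4.79 (median 4.18) at D180. The log2 changes of -0.26, -0.94, and -0.84 had an SE of 0.40 and the groups overlapped at each day. Tuft cell markers, from a rare airway cell with villin in its brush border, had median changes of -0.20, -0.40, and -0.83. Of the 3 markers, none passed at D1, 1 was higher at D30, and 1 was lower at D180, and their part in the Vil1 values was not tested. Their mean level was 6.45 to 7.48 in vehicle and 6.13 to 7.66 in DQ-12 rats at D1, 6.57 to 7.03 and 6.13 to 7.15 at D30, and 6.08 to 7.21 and 5.97 to 6.56 at D180.

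Scin, a severing protein first known from secretory cells, was well above background on all 36 arrays and differed little between treatments. Vehicle rats ranged from 5.91 to 6.73 (median 6.66) and DQ-12 rats from 6.06 to 6.90 (median 6.41) at D1. The ranges were 6.90 to 7.50 (median 7.04) and 6.36 to 7.09 (median 6.91) at D30, and 6.36 to 7.16 (median 6.81) and 6.03 to 7.05 (median 6.73) at D180. The groups overlapped at each day, and the log2 changes were -0.08, -0.25, and -0.11 (SE 0.17).

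Of the filament bundlers, Lcp1 separated the groups at D180. Lcp1 ranged from 14.28 to 14.71 (median 14.44) in vehicle rats and, after DQ-12, 13.90 to 14.51 (median 14.45) at D1, and from 14.26 to 14.63 (median 14.43) and 14.44 to 14.87 (median 14.70) at D30. At D180, vehicle rats ranged from 14.17 to 14.57 (median 14.37) and all 6 DQ-12 rats lay above them, from 14.63 to 15.10 (median 14.93). The log2 change went from -0.10 at D1 to 0.25 at D30 and 0.50 at D180 (SE 0.11), a difference of 0.60 (SE 0.15) between D180 and D1. This order is also that of the general leukocyte markers, with their median changes of -0.27, 0.26, and 0.60, and their part in the Lcp1 values was not tested. Lcp1 within scan dates at D180 was higher by 0.40 with 3 rats of each group and by 0.46 with 1 of each. With slide as a block, the change at D180 was 0.17 (SE 0.24) and Lcp1 was no longer called, a value that rests on the 1 slide that held both groups, with 1 rat of each.

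Fscn1, a bundler of thin cell projections and a marker of mature dendritic cells, showed overlapping groups at each day. It ranged from 10.42 to 11.00 (median 10.60) in vehicle rats and, after DQ-12, 10.30 to 11.33 (median 11.03) at D1. The D30 ranges were 9.79 to 10.56 (median 10.40) and 10.54 to 11.12 (median 10.70), and 4 of 6 DQ-12 rats were above all vehicle rats. At D180, it ranged from 9.95 to 10.88 (median 10.19) and 10.37 to 10.79 (median 10.42). Its log2 changes were 0.30, 0.43, and 0.11 (SE 0.17). With scan date as a block, the D1 value was -0.06 (SE 0.26) and the D180 value 0.40 (SE 0.17).

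Arpc1b and Arpc1a are alternative forms of a single Arp2/3 subunit, and Arpc1b is the main form in blood cells. In the fit without a batch term, Arpc1b was higher in DQ-12 rats at D1 and D180 but not at D30. At D1, vehicle rats ranged from 12.11 to 12.50 (median 12.32) and DQ-12 rats from 12.70 to 13.13 (median 12.78). At D180, the ranges were 11.97 to 12.35 (median 12.25) and 12.73 to 13.11 (median 12.88). The groups did not overlap at either day, with log2 changes of 0.51 (SE 0.15) and 0.72 (SE 0.15). At D30, vehicle rats ranged from 11.14 to 12.30 (median 12.16) and DQ-12 rats from 11.50 to 12.51 (median 11.83), a change of -0.11 (SE 0.15).

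The D30 value of Arpc1b moved with scan date. In the first scan date, 4 vehicle rats read 12.14 to 12.30 and the 1 DQ-12 rat read 12.51. In the second, 2 vehicle rats read 11.14 and 11.79 and the 5 DQ-12 rats 11.50 to 11.92. The signal was thus lower in the second scan date in both treatments. Within scan dates, DQ-12 rats exceeded vehicle rats by 0.29 in the first and by 0.26 in the second. With scan date as a block, the change at D30 turned to 0.27 (SE 0.12), and with slide as a block to 0.30 (SE 0.11), neither past the threshold. It was -0.28 without vehicle replicate 3, the lowest rat. The D180 change was 0.67 (SE 0.12) with scan date as a block and 0.45 (SE 0.22) with slide as a block, the latter no longer past the threshold. The D1 change was 0.52 (SE 0.19) with scan date as a block, also no longer past it.

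**Figure D2:**
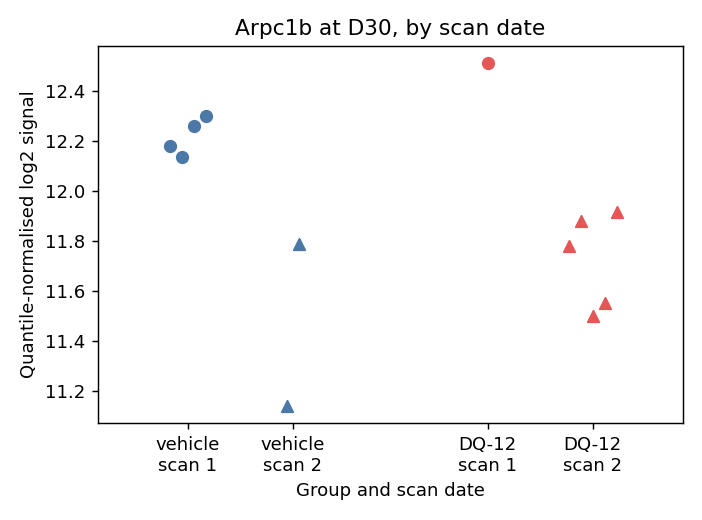
Quantile-normalized log2 signal of Arpc1b (vertical axis) at D30 by group and scan date (horizontal axis), each point 1 rat, circles for the first scan date and triangles for the second. Arrays of the first scan date read 12.14 or more, and those of the second 11.92 or less, in vehicle and DQ-12 rats alike.

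Coro1a, the leukocyte coronin, had overlapping groups at each day. It ranged from 14.13 to 14.57 (median 14.33) in vehicle rats and, after DQ-12, 14.07 to 14.50 (median 14.27) at D1, from 13.38 to 14.56 (median 14.41) and 14.07 to 14.60 (median 14.13) at D30, and from 13.94 to 14.47 (median 14.11) and 14.12 to 14.91 (median 14.38) at D180. Its log2 changes were -0.02, 0.01, and 0.27 (SE 0.16). Vehicle replicate 3 at D30, the low value of 13.38, was also the lowest vehicle rat of that day for Arpc1b, Capg, Lcp1, and Pfn1. The Coro1a change at D30 was -0.16 without it. That change was 0.23 (SE 0.16) with scan date as a block and 0.21 (SE 0.13) with slide as a block, neither past the threshold.

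Pfn1, the monomer-binding protein, separated the groups at D1, where DQ-12 rats ranged from 13.05 to 13.51 (median 13.29) and vehicle rats from 12.51 to 12.87 (median 12.75). The vehicle and DQ-12 ranges were 12.42 to 12.90 (median 12.68) and 12.60 to 13.16 (median 12.87) at D30, and 12.33 to 13.71 (median 12.58) and 12.70 to 13.45 (median 13.18) at D180. The log2 changes were 0.54, 0.20, and 0.42 (SE 0.16). At D180, vehicle replicate 5 read 13.71, above all DQ-12 rats, while the next highest vehicle rat read 12.63, below all of them. Without replicate 5 the D180 change was 0.62, and with scan date as a block it was 0.63 (SE 0.14).

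**Figure D3:**
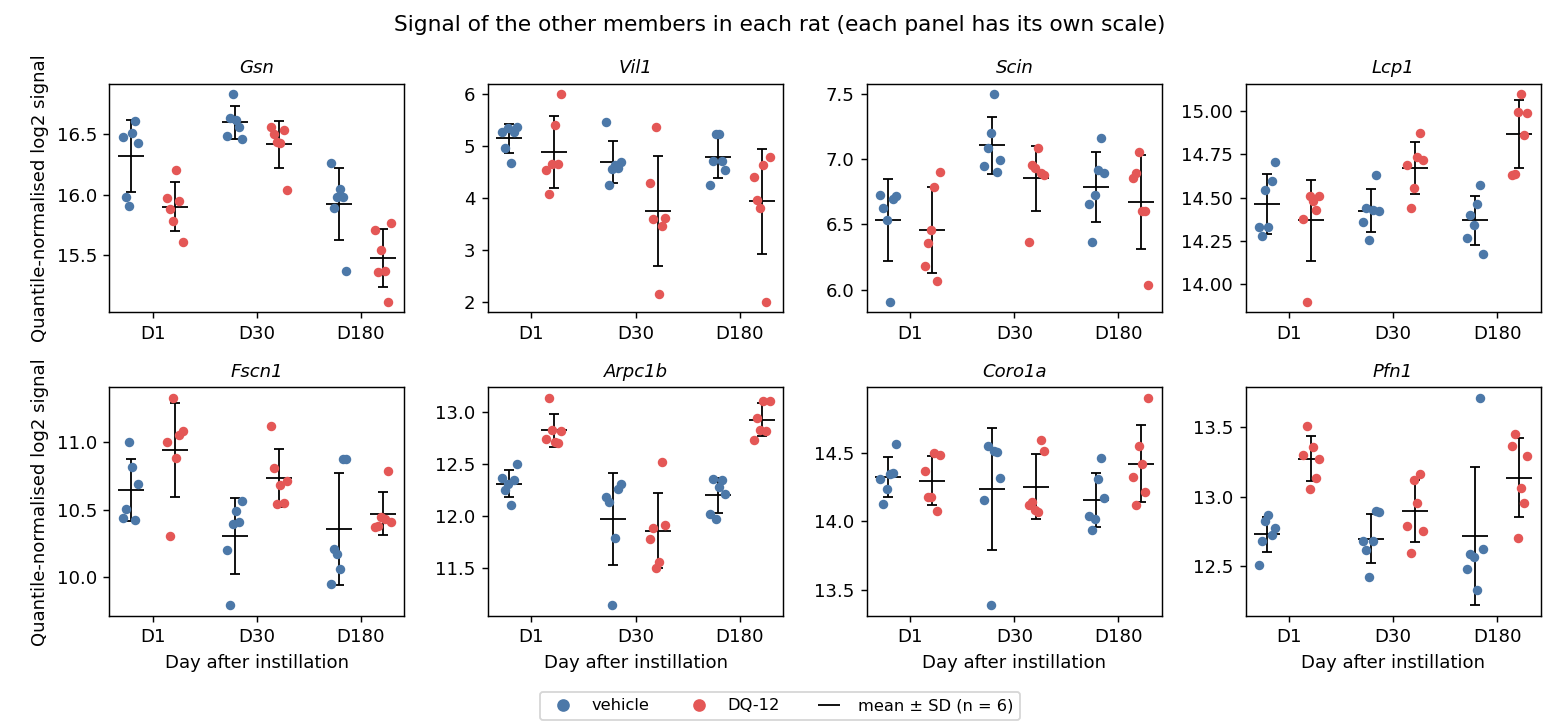
Quantile-normalized log2 signal of the 8 other members (vertical axes, each with its own scale) in each rat at D1, D30, and D180 (horizontal axes), vehicle in blue and DQ-12 in red, with black bars for mean ± SD. Groups do not overlap for Arpc1b and Pfn1 at D1 and for Arpc1b and Lcp1 at D180, and vehicle replicate 5 stands at 13.71 for Pfn1 at D180.

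Counted at an adjusted p under 0.05 over all genes, 3 members were higher (Capg, Arpc1b, and Pfn1) and 1 lower (Gsn) at D1, beside 7.58% of all genes tested that were higher and 8.62% that were lower. Capg alone was called at D30, when 2.74% of all genes were higher and 1.24% lower. At D180, 3 were higher (Capg, Arpc1b, and Lcp1) and 1 lower (Gsn), beside 7.81 and 9.01%. Without a batch term, only Capg at D180 also reached an FC of 2, as did 2.85% of all genes in that direction. Capg at D30 was past that FC in the fits blocked by scan date (log2 change 1.05) and by slide (1.04). The study, which corrected for batch, also listed Capg above that FC at D30. Every DQ-12 rat lay above every vehicle rat for 3 members at D1, 1 at D30, and 3 at D180, beside 5.24, 1.81, and 3.85% of all genes without missing values. The members were chosen with these contrasts known, so nothing is read from these counts. The median log2 change of the 9 members was -0.02, 0.01, and 0.27, and that of all genes -0.01, -0.02, and -0.03. At D1, leaving out vehicle replicate 4 or DQ-12 replicate 2 reduced the 4 calls to 2 (Capg and Pfn1), and with slide or scan date as a fixed block none remained. With 75th percentile scaling, Gsn was not called at D1 or D180, and Coro1a and Pfn1 were called at D180. Gsn was also not called at D1 or D180 with the deposited log2 values or with each day fitted alone. With a stricter filter (every array of at least 1 group well above background), 6 members were called at D180, Vil1 (-0.82) and Pfn1 in addition. With slide as a fixed block, the D180 calls were Capg and Pfn1, the latter not among the 4 without a batch term. The Pfn1 value in that fit, 1.03, rests on the only slide that held both groups at D180, with 1 rat of each. Scan date as a fixed block added Pfn1 to the 4, as did leaving out vehicle replicate 5 or DQ-12 replicate 3. Leaving out vehicle replicate 1 or DQ-12 replicate 5 at D180 also ended the Gsn call there, as did leaving out vehicle replicate 1, 5, or 6 or DQ-12 replicate 3 or 6 at D1 for that day.

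**Figure D4:**
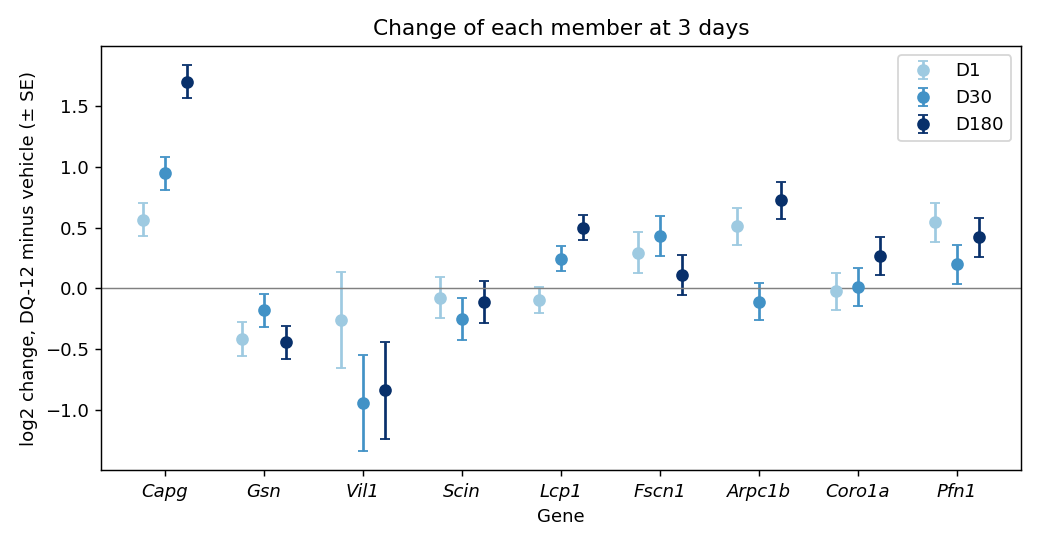
Log2 change between DQ-12 and vehicle rats (vertical axis, points with ± SE from the linear model) for each member (horizontal axis) at D1, D30, and D180, from light to dark blue. Without a batch term, Capg goes from 0.56 to 0.95 and 1.70, Arpc1b reads -0.11 at D30, and Gsn, Vil1, and Scin lie below 0 at each day.

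Vehicle rats alone show how the members differed with time, a contrast without DQ-12 rats, although in them age, time after instillation, and scan date cannot be told apart. Gsn fell between D30 and D180, from a mean of 16.60 to 15.92, a log2 change of -0.67 (SE 0.14, limma adjusted p = 0.00148), while 11.5% of all genes passed that test. This call was made in 45 of 45 alternatives. Those that left out a rat of another group could not move the difference, and fixed batch blocks could not be fitted across days. Scin rose between D1 and D30, from 6.53 to 7.10 (0.57, SE 0.17, limma adjusted p = 0.0387), beside 6.54% of all genes. The Scin call was made in 34 of 45 alternatives, such fits again included, and its log2 difference was 0.34 to 0.61 across them. Leaving out any of vehicle replicates 2, 3, and 4 at D1 or at D30 ended it, with a lowest difference of 0.45 without replicate 4 at D1. No member passed between D1 and D180, where 10.6% of all genes did, and 1 member (Gsn, limma adjusted p = 0.0591) had an unadjusted p under 0.05. Capg in vehicle rats differed by -0.31 (SE 0.14, limma adjusted p = 0.165) between D30 and D1 and by 0.12 (SE 0.14, limma adjusted p = 0.639) between D180 and D30. Its differences among vehicle rats were thus smaller than its changes with DQ-12 at the same days.

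Among rats of the same group, deviations from the group mean show which members varied together, a measure that the group changes do not set. Over 36 arrays, Pearson's r ranged from -0.40 to 0.64 across the 36 pairs of members, with a median of 0.07, and is given without a p because these points share scan dates and slides. The highest values were 0.64 for Arpc1b with Coro1a, 0.57 for Capg with Arpc1b, and 0.53 for Lcp1 with Coro1a. Deviations taken within scan dates gave 0.52, 0.59, and 0.47 for the same pairs. Values for Gsn lay on both sides of 0, up to 0.15 with Vil1. The lowest of all pairs were -0.40 for Gsn with Fscn1 and -0.28 for Gsn with Capg. Within scan dates, these were -0.06 and -0.40, the lowest pair was Gsn with Arpc1b (-0.45, against -0.17), and the highest was Lcp1 with Fscn1 (0.60, against 0.29). Which pairs stood at the ends thus changed with scan date taken into account.

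Genes outside the members were also ranked by likeness to Capg. Over the 36 arrays, the highest correlations were with Prdx5 (0.98), a peroxiredoxin that removes peroxides, Igsf8 (0.97), Gpnmb (0.96), a glycoprotein of lipid-laden macrophages, Ifi30 (0.96), a lysosomal thiol reductase, and Il1rn (0.95), the antagonist of the interleukin-1 receptor. Across the other genes the median was -0.03 (quartiles -0.24 and 0.18). This measure includes the group differences by which Capg was chosen, so a gene that changed with DQ-12 can rank high for that alone. For Il1rn, r was 0.51 once group means were removed. For deviations from group means, the 5 highest were Prdx5 (0.89), the mucin Muc1 (0.82), Igsf8 (0.80), the cathepsin Ctsh (0.78), and the complement protease C1r (0.78), with a median of 0.01 (quartiles -0.16 and 0.19) across genes. Prdx5 and Igsf8 were thus among the closest by both measures.

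Other genes of actin regulation, none of them a member, were examined as a list of 90, of which 88 were on the array and tested. At D1, 9 were higher (10.2%) and 8 lower (9.09%), beside 7.58 and 8.62% of all genes. At D30, 5 were higher (5.68%) and 2 lower (2.27%), beside 2.74 and 1.24%. At D180, 19 were higher (21.6%) and 10 lower (11.4%), beside 7.81 and 9.01% of all genes. The list was chosen with earlier results of these data known, so nothing is read from these shares. Its adjusted p-values, here and below, are given as description. The median log2 change of the list was 0.06, 0.00, and 0.04, so genes moved in both directions about a center near 0.

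**Figure D5:**
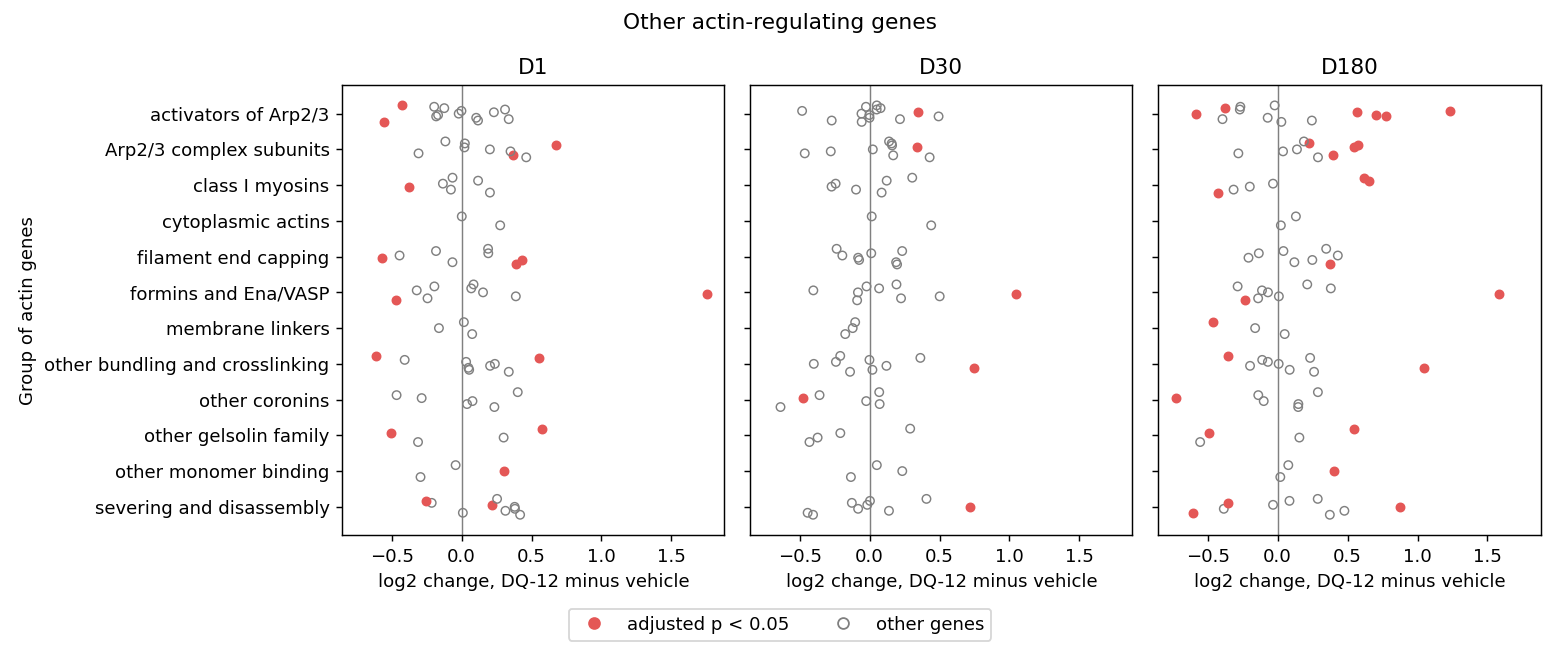
Log2 change between DQ-12 and vehicle rats (horizontal axes) of 81 of the 88 other actin-regulating genes at D1, D30, and D180, in rows by group of genes, red where the limma adjusted p was under 0.05 and open gray otherwise. Diaph3 is the point farthest to the right at each day, at 1.75, 1.05, and 1.58.

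Diaph3, a formin that lengthens filaments and acts in dividing cells, had the largest change of the list at each day without a batch term. Its mean rose from 6.21 to 7.96 at D1 (1.75, SE 0.23, limma adjusted p = 1.71e-06), from 5.86 to 6.91 at D30 (1.05, SE 0.23, limma adjusted p = 0.00571), and from 5.52 to 7.10 at D180 (1.58, SE 0.23, limma adjusted p = 6.14e-06). The DQ-12 rats above the highest vehicle rat numbered 6, 5, and 6 of 6. With scan date as a block, the Diaph3 changes were 1.44 (SE 0.37), 0.59 (SE 0.23), and 1.68 (SE 0.24), past the threshold only at D180. With slide as a block, they were 1.29 (SE 0.34), 0.64 (SE 0.21), and 1.12 (SE 0.43), past it at no day. Aif1, a macrophage protein that bundles actin, did not pass at D1 (0.05, SE 0.13) but rose at D30 (0.75, limma adjusted p = 0.000377) and D180 (1.05, limma adjusted p = 3.69e-07), with all 6 DQ-12 rats above vehicle at both days. Cotl1, a coactosin-like protein of leukocytes, rose by 0.71 at D30 (limma adjusted p = 0.0014) and 0.88 at D180 (limma adjusted p = 1.86e-05). With slide as a block, neither Aif1 (0.76) nor Cotl1 (0.65) passed at D180, where the only slide with both groups held 1 rat of each.

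Subunits of the Arp2/3 complex other than Arpc1b were higher in 2 of 9 cases at D1 (Arpc4, 0.67, and Actr3, 0.37), in 1 at D30 (Arpc3, 0.34), and in 4 at D180 (Arpc4, 0.58, Arpc3, 0.55, Actr3, 0.40, and Arpc5, 0.22), with none lower, beside 7.58, 2.74, and 7.81% of all genes that were higher. Blocked by scan date, no subunit passed at D1 (Arpc4, 0.49, limma adjusted p = 0.457), and Arpc4 did not pass at D180 (0.41, limma adjusted p = 0.108). Arpc1a, the alternative to Arpc1b, did not pass at any day (0.35, -0.28, and 0.04, SE 0.12). Of 13 activators of the complex, 4 were higher at D180, namely Was (1.23, limma adjusted p = 0.0281), Cyfip2 (0.78), Hcls1 (0.70), and Nckap1l (0.57), and Nckap1 (-0.58, limma adjusted p = 9.27e-05) and Wasf2 (-0.38) were lower, beside 7.81 and 9.01% of all genes. Was and Nckap1l are known as genes of blood cells, while Nckap1 is the broadly expressed counterpart of Nckap1l. Was was dim, well above background in 2 vehicle and 5 DQ-12 rats. At D30, Nckap1l rose by 0.34 (limma adjusted p = 0.0186). At D1, the Abl interactor Abi1 fell by 0.55 (limma adjusted p = 0.00353).

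Other relatives of the members moved in both directions. In the gelsolin family, Vill (villin-like) rose by 0.57 at D1 (limma adjusted p = 0.00515) and 0.54 at D180, and Svil (supervillin) fell by 0.51 at D1 (limma adjusted p = 9.21e-05) and 0.49 at D180 (limma adjusted p = 9.12e-05), with all 6 DQ-12 rats below vehicle at both days. Of the plastins related to Lcp1, Pls3 fell by 0.61 (limma adjusted p = 0.000198) and Pls1 rose by 0.56 (limma adjusted p = 0.00602) at D1. Coro2b, a coronin best known from neurons, fell by 0.47 at D30 (limma adjusted p = 0.0451) and 0.73 at D180 (limma adjusted p = 0.000213). Carmil1, which loosens capping protein from filament ends, fell by 0.57 at D1 (limma adjusted p = 0.000478), and Cap2, a cyclase-associated protein, by 0.60 at D180 (limma adjusted p = 0.011). The Cap2 value was -0.57 in the fit blocked by scan date (limma adjusted p = 0.0745) and turned to 0.15 in that blocked by slide (limma adjusted p = 0.973). Neither cytoplasmic actin passed at any day, with changes of 0.28, 0.44, and 0.02 (SE 0.22) for Actb and of 0.00, 0.02, and 0.13 (SE 0.06) for Actg1. With scan date as a block, 0 of the 88 genes passed at D1, 2 at D30, and 31 at D180, and with slide as a block 1, 2, and 3 passed at D1, D30, and D180. Over all 48 alternatives, batch terms and left-out rats included, Coro2b at D30 passed in 18, Nckap1l in 41, and Diaph3 in 43. Many of these left out a rat of another day, which could not move a D30 change. Neither Diaph3 nor Nckap1l passed at D30 with slide or scan date as a fixed block. They also did not pass with scan date as a random block or with each day fitted alone. With the median over a gene's probes, Diaph3 at D30 (0.54) and Svil at D1 (-0.23) did not pass, and with 75th percentile scaling Was at D180 (0.97) did not.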

How the data were processed

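The authors hybridized RNA from each of 36 rats to a single-color Agilent array and deposited the scanner intensity of each spot (Feature Extraction 12.0.1.1, per the file headers), along with log2 values. The deposited log2 values match log2 background-corrected intensity scaled to the 75th percentile on each array and then centered per probe (median absolute difference 0.00174), and served as an alternative. Here, log2 background-corrected intensity was used without a pseudocount. Between 232 and 596 outlier spots per array were dropped, spots of a probe were averaged, and 42200 probes above the 95th percentile of negative controls on at least 6 arrays were kept and quantile normalized. The brightest probe of a gene was used, giving 23940 genes. Groups came from sample titles. Means of 6 groups were fitted in limma 3.58.1 (R 4.3.3), with 2-sided tests and Benjamini–Hochberg adjustment over all genes within a comparison, following the study's methods. The batch variable of the study is not given in the sources used here, so none entered the model. The fit was tested on simulated data. Members and gene lists were chosen with earlier results of these data known. All members, the 4 called genes of the actin list with the largest change in each direction per day, and the 5 genes most like Capg by each measure were named, and further list genes were named after their values were seen. Alternatives changed the background correction, scaling, filter, probe summary, batch term, and rats included. The number of arrays limits the precision. Protein sequences were not used here, and 1 group of the actin list, with 1 gene that the rule names at D30, is counted but not reported by gene.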

Additional observations from a re-analysis of the deposited data

Results flagged for a closer look

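In 10 of 54 sets of 6 rats (9 members in 6 groups), 1 rat stood apart from the other 5 by Dixon's criterion, which flags about 1 in 20 sets by chance. These log2 signals were 16.04 for Gsn in DQ-12 replicate 6 at D30, 5.45 for Vil1 in vehicle replicate 1 at D30, and 2.02 for Vil1 in DQ-12 replicate 5 at D180. They were 5.91 for Scin in vehicle replicate 4 at D1, 6.36 for Scin in DQ-12 replicate 1 at D30, and 10.79 for Fscn1 in DQ-12 replicate 5 at D180. DQ-12 replicate 2 at D1 stood apart for both Lcp1 (13.90, low) and Arpc1b (13.13, high). Vehicle replicate 3 at D30 was low for Coro1a (13.38), and vehicle replicate 5 at D180 was high for Pfn1 (13.71). Both Vil1 values belong to a dim probe.

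The change with DQ-12 differed between D180 and D1 for 2 members by the interaction term of the linear model, by 1.14 (SE 0.19) for Capg and 0.60 (SE 0.15) for Lcp1 on the log2 scale. Both genes were chosen with these changes known, so the differences are given as values.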

How the results depend on the processing

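Calls here are genes at an adjusted p under 0.05. Of the 9 members, 4, 1, and 4 were called at D1, D30, and D180. At D1 there were 0 calls with scan date or with slide as a fixed block and 2 with either as a random block, and at D180 there were 2 with slide as a fixed block. Leaving out single rats gave 2 to 4, 1 to 1, and 3 to 5 calls. Of the 88 other actin genes tested, 17, 7, and 29 were called. With scan date as a fixed block, 0 were called at D1 and 2 at D30. With scan date as a random block, the counts were 9 and 2. With slide as a fixed block, they were 1, 2, and 3 at D1, D30, and D180, and with slide as a random block 4 at D30. Each day fitted alone gave 26, 2, and 19, and the median over a gene's probes 4 at D30. Leaving out single rats gave 13 to 19, 3 to 13, and 25 to 31. At D30, leaving out DQ-12 replicate 5 gave 13 and leaving out vehicle replicate 2 gave 3.

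Capg kept its direction under all alternatives, with log2 changes of 0.48 to 0.62 at D1, 0.87 to 1.05 at D30, and 1.49 to 1.82 at D180. Its difference between D180 and D30 was 0.44 with slide as a fixed block. Leaving out single rats gave 0.31 to 0.44 for D30 minus D1, 0.65 to 0.87 for D180 minus D30, and 1.03 to 1.25 for D180 minus D1. The median correlation between members was 0.05 to 0.11.

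In vehicle rats, the 1 call between D1 and D30 (Scin) became 0 with 75th percentile scaling, the deposited log2 values, and slide or scan date as a random block. Between D1 and D180, the 0 calls became 1 (Gsn) with normexp correction and with probes well above background. Leaving out single rats gave 0 to 1 for both, and 1 to 1 between D30 and D180. Fixed batch blocks could not be fitted across days.

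Same-numbered rats of the 2 treatments had deviations that correlated from -0.13 to 0.22, above 0.1 in 6 of 18 pairs. These values alone cannot show whether the numbers paired rats. With the replicate block, 4, 1, and 4 members were called, and the Scin call between D1 and D30 became 0.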
